A study of Drosophila melanogaster with 40 samples.

Results

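*Uba1* encodes the ubiquitin-activating enzyme of *Drosophila melanogaster*, and its mRNA was followed here as 1 row, FBtr0088499, of 6524 rows measured in the pools of polysome gradients. The identifier was matched to *Uba1* through a gene table of the Release 6 plus ISO1 MT assembly. The row was selected by its identifier with measured values of these same arrays already known, and all its levels and ratios come from those arrays, so its values are a description and carry no test. Embryos were collected 0 to 2 h after egg laying. The wild-type embryos were of the strain labelled W1118, and the *smaug*-mutant embryos came from mothers homozygous for the *smaug1* allele. Much of the mRNA in embryos of this age was supplied by the mother. There were 3 gradients of wild-type and 3 of *smaug*-mutant embryos, all lysed in a buffer that held cycloheximide. A further 4 gradients came from *smaug*-mutant lysate that was divided between puromycin, with 2 gradients, and cycloheximide, with 2 gradients. Gradients of these groups with the same number were taken to share a lysate, which the labels do not state. These 4 gradients used another lysis buffer and an incubation step. All 3 kinds of *smaug*-mutant gradient carry the same mutation, and the drugs were not applied to wild-type lysate. The samples are whole embryos, so no cell type and no region of the embryo was separated. The level of *smaug* mRNA itself was not analysed here.

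The enzyme, known as E1, stands at the head of the ubiquitin pathway. It uses ATP to link ubiquitin to itself through a thioester bond and then passes it to the many E2 conjugating enzymes, which with E3 ligases attach it to proteins. Chains of ubiquitin send proteins to the proteasome, and in dividing nuclei of the early embryo this route removes cyclins. Before transcription of the embryo's own genome begins, the amount of such an enzyme that is made depends on how ribosomes use the maternal mRNA. Smaug recognises hairpins in maternal transcripts of the fly and lowers their use by ribosomes, their stability or both.

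In a polysome gradient an mRNA sediments further the more ribosomes it carries. Each gradient was divided from the top into 4 pools. Pool 1, of 4 mL, holds mRNA free of ribosomes, pool 2, of 2 mL, is a mixed zone, and pools 3 and 4, of 3 mL each, hold mRNA on polysomes, pool 4 with the pellet. Each pool was measured on 1 array in 1 dye. Levels were read as log2 values after the authors' normalisation to Arabidopsis RNA added to every pool, so a step of 1 was taken as a doubling. Each array was scaled with its own fitted slope, so a step may not be the same fold on every array. For the translation index (TI), the log2 level of a row in pool 1 was taken from the mean of its log2 levels in pools 3 and 4 of the same gradient, so that a TI above 0 means more of the mRNA in an average polysomal pool than in the free pool.

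Array medians lay between 9.98 and 14.1 and the SD over rows between 1.06 and 2.03. Replicate arrays of a pool correlated across rows, which are not independent of each other, at r of 0.507 to 0.965, and except with puromycin the lowest correlation of each group was in pool 1. The pool 1 array of wild-type replicate 1 correlated with the other wild-type pool 1 arrays at 0.507 and 0.571, whereas those correlated with each other at 0.857. The pool 1 array of *smaug*-mutant replicate 3 correlated with the other *smaug*-mutant pool 1 arrays at 0.599 and 0.626, which correlated with each other at 0.675. With cycloheximide the pool 1 arrays correlated at 0.683 and those of the other pools at 0.949 to 0.964.

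*Uba1* mRNA was abundant on these arrays and lay above the array median in 36 of 40 arrays. In pools 2, 3 and 4 it was above the median in all 30 arrays, and in pool 1 in 6 of 10. The 4 exceptions were the pool 1 arrays of wild-type replicate 1, *smaug*-mutant replicates 1 and 3 and cycloheximide replicate 1. Summed over the 4 pools on the linear scale, *Uba1* ranked between 71 (puromycin replicate 2) and 727 (*smaug*-mutant replicate 1) from the highest of 6524 rows. That placed it above 88.9% to 98.9% of rows in every gradient, although a rank of levels between rows also depends on how brightly their probes hybridise.

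In pool 1, the free mRNA, the levels of *Uba1* differed most from gradient to gradient. In wild type they were 9.96, 14.7 and 14.8 in replicates 1, 2 and 3. In *smaug*-mutant embryos they were 10.9, 13.1 and 7.24. Wild-type replicate 1 was thus far below the other 2 wild-type gradients, *smaug*-mutant replicate 3 was the lowest of all, and the groups overlapped. With cycloheximide the levels were 11.0 and 14.8, and with puromycin 15.4 and 16.3. Both puromycin gradients lay above each of the 8 others. Most rows did the same group by group. Of 6524 rows, puromycin was above without overlap in 4395 against wild type, 5528 against *smaug*-mutant and 4686 against cycloheximide.

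In pool 2 the levels were closer together. They were 13.2, 11.8 and 14.7 in wild type and 12.8, 13.7 and 11.7 in *smaug*-mutant embryos. With cycloheximide they were 12.8 and 13.1, and with puromycin 14.3 and 15.7. The wild-type and *smaug*-mutant ranges overlapped, and wild-type replicate 3 exceeded puromycin replicate 1.

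In the polysomal pools the levels of *Uba1* lay closer together than in pool 1. In pool 3 the levels were 13.4, 12.1 and 13.7 in wild type and 13.3, 14.8 and 14.7 in *smaug*-mutant embryos. With cycloheximide both were 12.9, and with puromycin they were 13.6 and 14.0. The *smaug*-mutant and wild-type ranges met only through *smaug*-mutant replicate 1, which was below the 2 higher wild-type gradients. In pool 4 the levels were 13.9, 14.6 and 14.1 in wild type and 13.2, 13.4 and 15.1 in *smaug*-mutant embryos. With cycloheximide they were 15.3 and 15.0, and with puromycin 10.7 and 11.9. Cycloheximide replicate 1 was the highest in pool 4 and both puromycin gradients were the lowest. Of 6524 rows, puromycin was below without overlap in 5558 against wild type, 4159 against *smaug*-mutant and 6416 against cycloheximide.

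**Figure D1:**
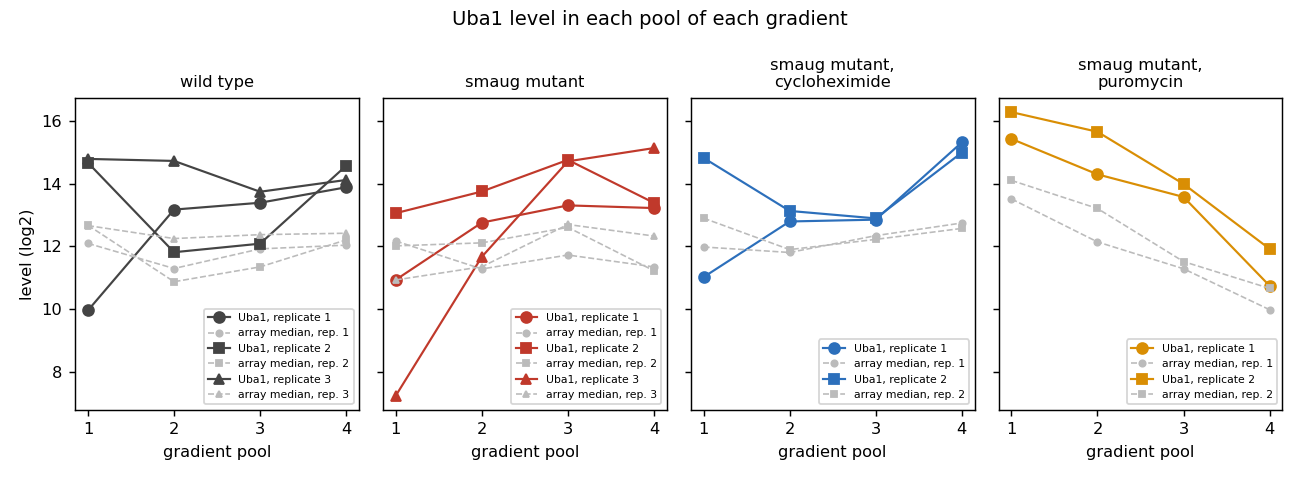
Level of *Uba1* (log2, vertical axis) in pools 1 to 4 (horizontal axis) of each gradient, with 1 panel per group, 1 line and symbol per replicate, and the median of all rows on the same arrays as dashed grey lines. Levels in pool 1 run from 7.24 to 16.3, those in pools 3 and 4 stay above the median of their array in every gradient, and the puromycin lines descend from pool 1 to pool 4.

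The order of the groups differed between pools. In pool 1 the mean was 15.9 ± 0.60 (SD, n = 2) with puromycin, 13.1 ± 2.75 (SD, n = 3) in wild type, 12.9 ± 2.69 (SD, n = 2) with cycloheximide and 10.4 ± 2.94 (SD, n = 3) in *smaug*-mutant embryos. Of these neighbours, only puromycin and wild type did not overlap, and puromycin was above wild type without overlap in 67.4% of rows. In pool 3 the order was *smaug*-mutant at 14.3 ± 0.82 (SD, n = 3), puromycin at 13.8 ± 0.29 (SD, n = 2), wild type at 13.1 ± 0.87 (SD, n = 3) and cycloheximide at 12.9 ± 0.03 (SD, n = 2). Each neighbouring pair overlapped in pool 3. In pool 4 it was cycloheximide at 15.2 ± 0.23 (SD, n = 2), wild type at 14.2 ± 0.35 (SD, n = 3), *smaug*-mutant at 13.9 ± 1.06 (SD, n = 3) and puromycin at 11.3 ± 0.83 (SD, n = 2). There only wild type and *smaug*-mutant overlapped among neighbours. Cycloheximide was above wild type without overlap in 41.1% of rows, and puromycin below *smaug*-mutant in 63.7%. Between the drug groups and wild type, genotype, drug, lysis buffer and incubation cannot be told apart. Between the drug groups and *smaug*-mutant, drug, lysis buffer and incubation cannot be told apart.

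The TI of *Uba1* was above 0 in 5 gradients and below 0 in 5. In wild type it was 3.68 in replicate 1, -1.34 in replicate 2 and -0.86 in replicate 3. In *smaug*-mutant embryos it was 2.33, 1.01 and 7.68. So all 3 *smaug*-mutant gradients lay above 0, but wild-type replicate 1 lay above 2 of them. With cycloheximide the TI was 3.06 and -0.88, and with puromycin it was -3.27 and -3.33.

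The rank of *Uba1* among all rows ran from near the top to below the middle. In *smaug*-mutant replicates 1, 2 and 3 its TI ranked 640, 1417 and 20 from the highest of 6524. In wild type it ranked 211, 4016 and 4367. The ranks were 533 and 3818 with cycloheximide and 3901 and 4020 with puromycin. Given as the share of rows with a lower TI, the mean was 89.4% ± 10.7 (SD, n = 3) in *smaug*-mutant and 56.1% ± 35.3 (SD, n = 3) in wild-type gradients, 39.3% ± 1.29 (SD, n = 2) with puromycin and 66.6% ± 35.6 (SD, n = 2) for the cycloheximide gradients. Without wild-type replicate 1 the wild-type mean was 35.7%. *Uba1* was above the median TI of its gradient in 5 gradients, namely all 3 *smaug*-mutant gradients, wild-type replicate 1 and cycloheximide replicate 1. The median TI of all rows was itself 1.77 in *smaug*-mutant replicate 3 and between -0.90 and 0.52 in the other gradients without puromycin.

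**Figure D2:**
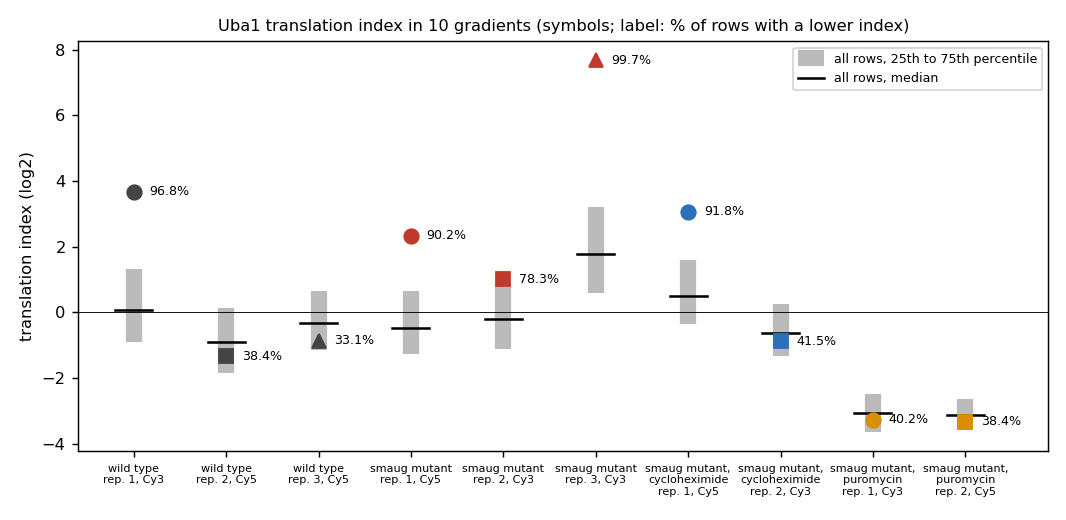
TI of *Uba1* (log2, vertical axis) in the 10 gradients (horizontal axis, with replicate and dye), where symbols are *Uba1*, grey bars run from the 25th to the 75th percentile of all rows, black lines are the median of all rows, and each label gives the percent of rows with a lower TI. *Uba1* lies above the grey bar in wild-type replicate 1, all 3 *smaug*-mutant gradients and cycloheximide replicate 1, and inside it in the other 5.

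Ordered by group, the mean TI was 3.68 ± 3.53 (SD, n = 3) in *smaug*-mutant embryos, 1.09 ± 2.79 (SD, n = 2) with cycloheximide, 0.49 ± 2.77 (SD, n = 3) in wild type and -3.30 ± 0.04 (SD, n = 2) with puromycin. The first 3 groups all overlapped. Puromycin, next to wild type in this order, lay below it in every gradient, with a difference of the means of -3.79 (standard error 1.60). The same was true of most rows: 85.6% of the 6524 had a TI in both puromycin gradients below all 3 of wild type. Cycloheximide differed from wild type by 0.60 (standard error 2.54), where the spread between gradients exceeds the difference. Both drug groups were *smaug*-mutant, with another lysis buffer and an incubation. In these differences from wild type, genotype, drug, buffer and incubation cannot be told apart.

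Between genotypes, the question of the study is which mRNAs associate more with polysomes when Smaug is lost. The mean TI of *Uba1* was 3.18 higher in *smaug*-mutant than in wild-type gradients, with a standard error of 2.59 from the spread between gradients, and the groups overlapped. The same difference over all rows had a median of 0.65, and 97.5% of rows had a lower one, which ranked *Uba1* 162. In terms of its parts, the mean of pools 3 and 4 differed by 0.46 (standard error 0.51) and pool 1 by -2.73 (standard error 2.33). The free pool therefore held most of the difference and most of the error. Only 2.25% of rows had a lower difference in pool 1, where the median of all rows was -0.83. The difference in TI was 4.77 without wild-type replicate 1 and 1.18 without *smaug*-mutant replicate 3, and it was 0.67 among gradients labelled with Cy3 and 3.43 among those labelled with Cy5. Replicate 1 was the only wild-type gradient in Cy3 and the only *smaug*-mutant gradient in Cy5, so dye and gradient cannot be told apart here.

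The lowest levels of free *Uba1* were on the pool 1 arrays of wild-type replicate 1 and *smaug*-mutant replicate 3, which correlated least with the other pool 1 arrays of their group. In pool 1 of wild-type replicate 1, *Uba1* differed by -4.77 from the mean of the other wild-type gradients, against a median of -0.72 over all rows, and 0.843% of rows were lower still. In pool 1 of *smaug*-mutant replicate 3, *Uba1* differed by -4.76 from the mean of the other *smaug*-mutant gradients, with a median over all rows of -1.15 and 1.61% of rows lower still. The part of these arrays in the spread of *Uba1* was not tested. By dye, the pool 1 levels of wild type were 9.96 in Cy3 and 14.7 and 14.8 in Cy5, and those of *smaug*-mutant embryos were 13.1 and 7.24 in Cy3 and 10.9 in Cy5. The part of the dye in these levels was not tested.

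Among gradients of a group *Uba1* varied more than nearly all other rows in its TI, puromycin excepted, and this spread lay mainly in pool 1. The SD of its TI within groups, taken over the 4 groups, was 2.83, against 1.03 for the median row, and ranked 17 from the highest. Group by group, its SD exceeded that of 99.1% of rows in wild type, 99.0% in *smaug*-mutant embryos and 96.0% with cycloheximide. With puromycin it was 0.04 against 0.33 for the median row, and 6.84% of rows had a lower one. For the level in pool 1 the SD over the 4 groups was 2.58 against 0.86 and ranked 30. In pool 2 it was 1.11 against 0.72, in pool 3 it was 0.70 against 0.66 and in pool 4 it was 0.73 against 0.66. The mean of pools 3 and 4 had a within-group SD of 0.56, where the median row had 0.57. The polysomal mean of *Uba1* thus varied about as much as that of the median row. Over the 8 gradients without puromycin the mean of pools 3 and 4 ranged over 1.66, from 13.3 to 14.9, while pool 1 ranged over 7.58 and the TI over 9.02. The range in pool 1 exceeded that of 99.3% of rows, whose median range was 2.95.

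**Figure D3:**
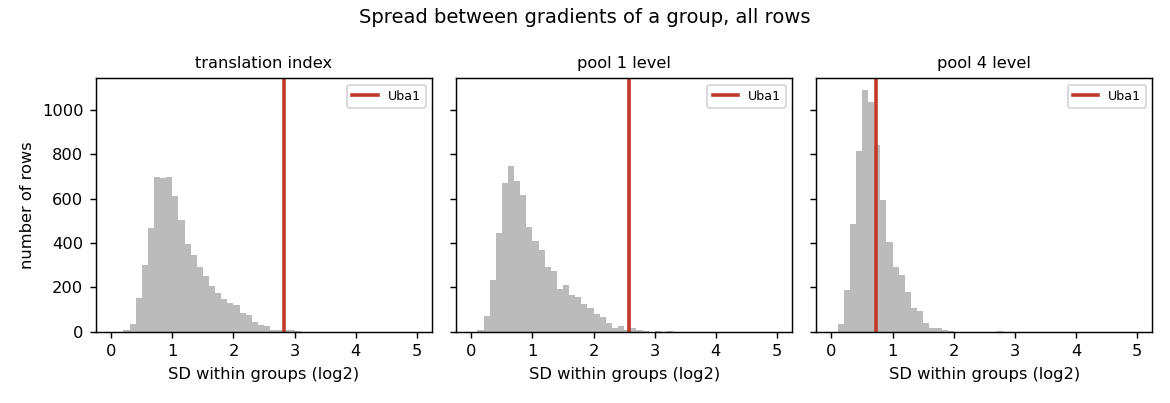
Number of rows (vertical axis) by their SD within groups (log2, horizontal axis) for the TI, the level in pool 1 and the level in pool 4, with all 6524 rows as grey bars and *Uba1* as a red line. *Uba1* stands at 2.83 in the far right tail for the TI and at 2.58 for pool 1, and at 0.73 near the middle of the rows for pool 4.

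Expressed as a share of the summed linear level, free *Uba1* mRNA in pool 1 amounted to 2.76%, 44.6% and 32.6% in wild-type replicates 1, 2 and 3 and to 6.85%, 14.1% and 0.228% in *smaug*-mutant replicates. It was 3.62% and 37.1% with cycloheximide and 56.4% and 52.6% with puromycin. The share on polysomes, pools 3 and 4 together, averaged 75.7% ± 16.8 (SD, n = 3) in *smaug*-mutant embryos, 67.7% ± 23.0 (SD, n = 2) with cycloheximide, 52.4% ± 17.9 (SD, n = 3) in wild type and 15.6% ± 3.19 (SD, n = 2) with puromycin. In wild-type replicates 2 and 3 and cycloheximide replicate 2 the polysomal share was 49.2%, 36.2% and 51.4%. There it exceeded the share in pool 1 although the TI was below 0. In both puromycin gradients, where the TI was also below 0, it was smaller, at 17.8% and 13.3%. The fullest pool was pool 3 or 4 in all 3 *smaug*-mutant and both cycloheximide gradients, pool 4 in wild-type replicate 1, and pool 1 in the other 2 wild-type gradients and with puromycin. In those 2 wild-type gradients pool 1 led only narrowly. It held 44.6% against 41.8% in pool 4 of replicate 2, and 32.6% against 31.2% in pool 2 of replicate 3. These shares rest on the spike-in scale of each array, which has a fitted slope and offset. An error in the slope would move the rows of that array by unequal amounts.

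**Figure D4:**
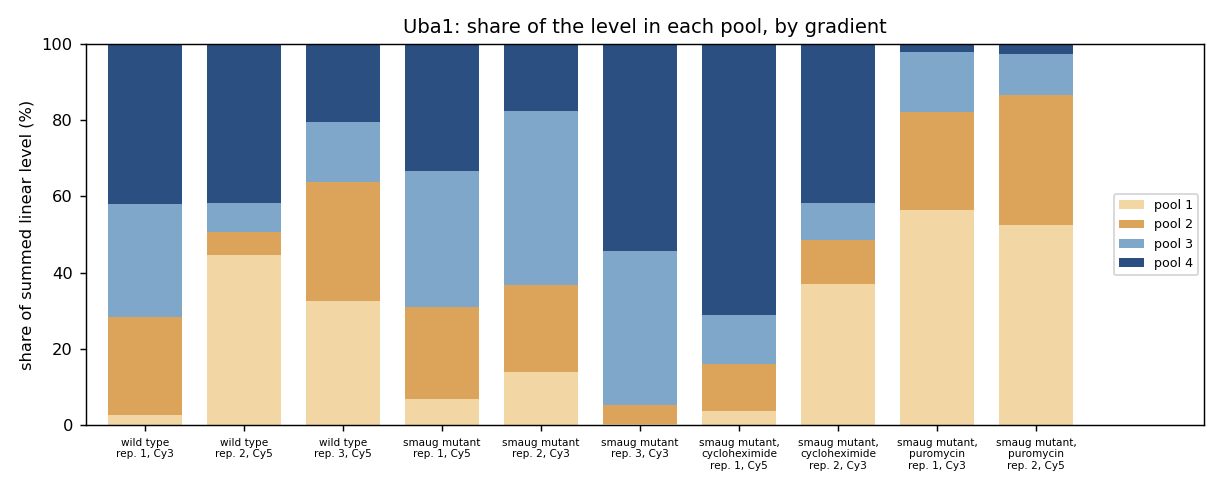
Share of the summed linear level of *Uba1* found in each pool (percent, vertical axis) for the 10 gradients (horizontal axis, with replicate and dye), stacked from pool 1 at the bottom to pool 4 at the top. Pool 1 takes 0.228% to 44.6% without puromycin and over 50% in both puromycin gradients, where pool 4 takes 2.19% and 2.56%.

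Within the polysomal part of the gradient, the log2 ratio of pool 4 to pool 3 tells how far toward heavy polysomes an mRNA lies. For *Uba1* it was 0.49, 2.49 and 0.38 in wild type and -0.09, -1.37 and 0.42 in *smaug*-mutant embryos. The mean differed by -1.46 in *smaug*-mutant embryos against wild type (standard error 0.87), and the ranges overlapped. The median row differed by -1.00, and 29.4% of rows had a lower difference than *Uba1*, which thus lay within the bulk of the rows. Without wild-type replicate 2 the difference was -0.78 and without *smaug*-mutant replicate 2 it was -0.95. Once arrays of the same pool were quantile-normalised to each other, the difference for *Uba1* was -0.021. The summed level of *Uba1* differed by -0.22 (standard error 0.53) between *smaug*-mutant and wild type, close to the median row at -0.23.

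With cycloheximide this ratio was 2.46 and 2.10, above 99.4% and 98.4% of rows. The lysate that was treated with cycloheximide and the untreated *smaug*-mutant lysate carry the same mutation and both met the drug, and yet the ratio was 2.62 higher (standard error 0.56) in the former, with no overlap. Of all rows, 71.6% were higher without overlap in the same direction, with a median difference of 1.03, and 98.9% of rows had a smaller difference than *Uba1*. In pool 3 *Uba1* differed by -1.39 (standard error 0.48), with cycloheximide below without overlap, as in 9.46% of rows. In pool 4 it differed by 1.24 (standard error 0.63), with overlap. Drug treatment, lysis buffer and incubation cannot be told apart between these groups. The TI differed by -2.58 (standard error 2.84), less than its error, and by -0.58 without *smaug*-mutant replicate 3, -0.61 without cycloheximide replicate 2 and -4.55 without cycloheximide replicate 1.

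Puromycin ejects nascent chains and frees ribosomes from mRNAs in translation, whereas cycloheximide holds ribosomes in place, so the pair asks whether the mRNA in pools 3 and 4 is there because of ribosomes. The TI of *Uba1* differed by -4.39 between puromycin and cycloheximide (standard error 1.97). Puromycin was below without overlap, as in 96.5% of rows, and the median difference over all rows was -3.00. In lysate 1 the difference was -6.33 and in lysate 2 it was -2.45, where the median rows were at -3.55 and -2.39. The difference between lysates came from the cycloheximide gradients, since the puromycin values were within 0.1 of each other. *Uba1* after puromycin ranked near the middle of the rows.

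Pool by pool, *Uba1* did not move evenly. In pool 4 the difference between puromycin and cycloheximide was -3.82 (standard error 0.61), and 98.3% of rows were likewise lower without overlap. In pool 1 it was 2.94 higher (standard error 1.95) and in pool 2 it was 2.01 higher (standard error 0.70), with 71.8% and 59.9% of rows higher without overlap. In these 3 pools *Uba1* thus went the way of most rows. In pool 3 it was 0.91 higher (standard error 0.21) without overlap, whereas the median row differed by -0.80 and 11.6% of rows were higher without overlap. The difference in pool 3 was 0.72 in lysate 1 and 1.10 in lysate 2, against medians of -0.96 and -0.67. After puromycin *Uba1* ranked 22 and 21 of 6524 in pool 3, where with cycloheximide 66.7% and 73.0% of rows were lower than it. The ratio of pool 4 to pool 3 was accordingly -2.83 and -2.07 with puromycin, a difference of -4.73 from cycloheximide (standard error 0.42), and 81.6% of rows were lower without overlap. In lysate 1 the ratio differed by -5.3 and in lysate 2 by -4.2. A lower difference in this ratio was found for 2.41% of rows, and the median over all rows was -1.58. The level of *Uba1* summed over the 4 pools was also higher with puromycin, by 0.70 (standard error 0.53). The median row differed by 0.18, and 96.1% of rows had a lower difference. In lysates 1 and 2 the summed level differed by 0.45 and 0.96, against medians of -0.08 and 0.40. The part of this in the pool 3 difference was not tested.

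**Figure D5:**
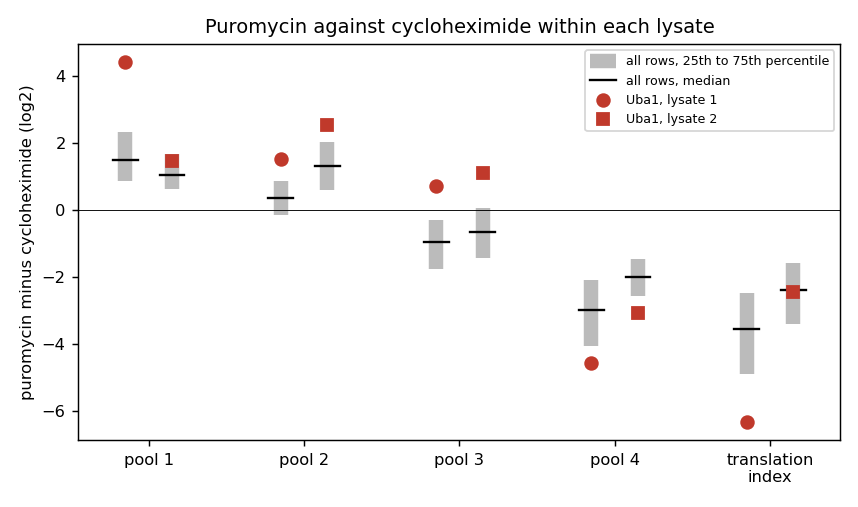
Difference between puromycin and cycloheximide (log2, vertical axis) in each pool and in the TI (horizontal axis) for *Uba1* in lysate 1 (circles) and lysate 2 (squares), with grey bars from the 25th to the 75th percentile of all rows and black lines at their median. In pool 3 both *Uba1* values, 0.72 and 1.10, are above 0 and above the grey bars, and in pool 4 both, -4.57 and -3.07, are below the grey bars.

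The rows most like *Uba1* were found by the root mean square difference of their levels, each minus its array median, over all 40 arrays. The nearest of the 6523 other rows, FBtr0072211 and FBtr0083508, carried no name in the gene table and differed by 0.58 and 0.70, where the median row differed by 2.05. Because both were picked for likeness on these same arrays, features they share with *Uba1* follow in part from the choice and are no separate support. FBtr0072211 had its lowest pool 1 level in *smaug*-mutant replicate 3, at 9.06, as *Uba1* had. Its pool 1 level in wild-type replicate 1 was 12.0, closer to the 14.6 and 14.4 of the other wild-type gradients than that of *Uba1* was. The mean TI of FBtr0072211 was 2.52 higher (standard error 1.78) in *smaug*-mutant than in wild-type gradients, and that of FBtr0083508 was 4.16 higher (standard error 2.88), with overlap in both. Without *smaug*-mutant replicate 3, an alternative chosen after seeing the data, the differences were 0.90 and 1.44.

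Of all rows, 8 could be named. Among the 7 besides *Uba1* the nearest was *sle*, which encodes a protein of the nucleolus, at a difference of 0.96 with 75 rows nearer. It was followed by *Wdr24*, for a subunit of the GATOR complex of nutrient signalling, at 1.49, and *kis*, for the chromatin remodeller Kismet, at 1.72. The rows of *alpha-Spec* (the cytoskeletal protein alpha-spectrin), *mio* (another GATOR subunit), *Dyrk3* (a protein kinase) and *His4r* (a histone H4) were farther off, at 3.00, 3.40, 5.10 and 5.47. The mean TI differed between *smaug*-mutant and wild-type gradients by 3.92 for *sle* (standard error 2.59) and 2.10 for *Wdr24* (standard error 1.18), and by 1.41 and 1.02 without *smaug*-mutant replicate 3. For *Uba1* these values were 3.18 and 1.18. The other 5 named rows differed by between -1.00 and 1.33, and with 1 gradient left out by between -1.89 and 1.65. Of all the rows listed here, only *alpha-Spec*, at 1.33 (standard error 0.69), had genotype groups without overlap in the TI. Among all 6524 rows, *smaug*-mutant was above wild type without overlap in 695. The SD of the TI in *smaug*-mutant gradients was 3.53 for *Uba1*, 4.75 for FBtr0083508, 4.35 for *sle* and 2.82 for FBtr0072211. The other 6 rows named here had an SD of 0.60 to 2.68. In wild type the SD was 2.77 for *Uba1* and 0.54 to 1.63 for the other 9 rows. The other genes of the pathway could not be set beside *Uba1*: of 59 genes for ubiquitin precursors, E1 and E1-like enzymes, E2 enzymes and proteasome subunits, 1 was paired with a row, and that was *Uba1*.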

How the data were processed

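RNA of 4 pools from each of 10 polysome gradients was hybridised to 40 NimbleGen arrays in 1 colour, Cy3 or Cy5. The deposited values were taken as log2 levels. The authors used the quantile normalisation of RMA and then transformed each array linearly, with a slope and an offset fitted on Arabidopsis spike-in RNA. The base was not stated and was read as 2, the base RMA uses. All 6524 rows were kept, of which 1 value was at or below 0 and 6 were below 4. Depth does not apply to arrays, and their number limits the precision. Groups, replicate numbers and dyes came from the sample labels. The genome build of the array design is not given in the sources used here, so no position is printed.

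The TI was the mean of log2 pools 3 and 4 minus log2 pool 1 in each gradient. Differences are of group means, with standard errors from the SD of each group, and "percent of rows lower" counts rows with a smaller value. For puromycin against cycloheximide these errors treat the gradients as independent and leave the shared lysate out of account. Groups are said not to overlap where every gradient of one lay above every gradient of the other. The row, the alternatives and the gene lists were chosen with earlier results of these data known, so no p-value was computed. Besides *Uba1*, the rule named the 2 rows with the nearest profile, every row the gene table names, and members of the pathway lists with a row. The calculation of the TI and its difference was checked on simulated data with shifts of known size in pools 3 and 4. The simulated noise was equal in all pools, unlike the spread of *Uba1*, so this checks the arithmetic only. Same-numbered *smaug*-mutant and wild-type gradients deviated from their group means with correlations of 0.26, 0.45 and -0.05 over rows. Their numbers were not taken as pairs. By the methods each lysate was divided between puromycin and cycloheximide, and gradients of one number were taken to be its parts. The correlation for these was 0.46, near the highest above, so the pairing rests on the methods and not on the correlations. Calculations used Python 3.11.15, numpy 2.4.6 and pandas 2.3.3.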

Additional observations from a re-analysis of the deposited data

How the results depend on the processing

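With 2 or 3 gradients a group, every difference of *Uba1* rests on few values. Of 74 alternatives besides the replicate block 67 moved a value by less than 1 SD, 7 by more, and none changed the sign of a difference in TI. The SD was that of *Uba1* between gradients of the groups concerned. It was 3.17 for the genotype difference in TI of 3.18, and 35.3 points for the wild-type mean percentile. Large changes thus stayed below 1 SD, and the count is no measure of stability. The TI of *smaug*-mutant minus wild type stayed between 0.67 and 4.77, with 1.18 to 4.77 when 1 gradient was left out. For puromycin minus cycloheximide the difference of -4.39 became -1.36 with gradients centred on their median, -1.20 with quantile normalisation within pools, -2.02 with pool 3 alone and -6.76 with pool 4 alone as numerator, -2.39 within Cy3 and -6.39 within Cy5. It was -2.42 without cycloheximide replicate 1 and -6.36 without cycloheximide replicate 2. Within a dye, a single puromycin gradient was set against a single cycloheximide gradient of the other replicate number. Cycloheximide minus *smaug*-mutant stayed between -4.55 and -0.58. A replicate block leaves the difference of means as it was by construction, 3.18 for genotype and -4.39 for the drugs, so it is no check of them. The ratio of pool 4 to pool 3 between genotypes, -1.46, became -0.021 with quantile normalisation within pools, and was between -1.85 and -0.78 with 1 gradient left out. The wild-type mean percentile was 35.7% without replicate 1 and at most 67.6%, and that of *smaug*-mutant embryos lay between 84.2% and 94.9%. The summed level between genotypes, -0.22, kept its sign in 5 of 8 alternatives and reached 0.16 without *smaug*-mutant replicate 1.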
